A study of Mus musculus with 6 samples.

Results

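Leukocyte adhesion molecules were followed in mouse primary lung fibroblasts exposed to extracellular cold-inducible RNA-binding protein. They were 8 genes of the 55487 in the deposited count table, taken by name: the selectins Sele and Selp, the immunoglobulin-family ligands Icam1, Icam2 and Vcam1, and the cell contact molecules Alcam, Mcam and F11r. Each name matched 1 row. The treated cells were kept for 24 h with recombinant mouse CIRBP (rmCIRBP) at 1 µg/mL, and the control cells for 24 h with PBS. All cells came from lungs of C57BL/6 mice of the wild type, were cultured as primary fibroblasts and had first spent 24 h in 0.1% serum, with 3 polyA-selected RNA-seq libraries per treatment. Whether replicates were different animals or cultures is not in the labels, and the spread behind every p-value may therefore be technical.

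White blood cells leave the blood in steps. Selectins on activated endothelium catch passing leukocytes and let them roll, and ICAM and VCAM proteins then hold them by binding leukocyte integrins. Junction proteins such as F11r line the route between endothelial cells that the leukocytes then take. Outside vessels, inflamed stromal cells including fibroblasts are known to carry Icam1 and Vcam1, through which leukocytes attach to tissue, and both genes are textbook targets of NF-kB. E-selectin and P-selectin, the products of Sele and Selp, are known chiefly from endothelium, and P-selectin also from platelets.

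The libraries held 13677385, 13925054 and 14001478 counts for rmCIRBP and 12172622, 12105584 and 14262375 for PBS, so that a count of 0 allowed up to 3 counts, or 0.210 to 0.248 CPM (counts scaled to the library total), for counting error only. Fibroblast markers other than Lum were abundant, as the label has it. Lum, lumican, was low at 1.57 ± 1.03 CPM in rmCIRBP and 1.54 ± 0.311 CPM in PBS (SD, n = 3 each; named after its values were seen). The 10 fibroblast markers summed to 32580 to 39120 CPM in rmCIRBP and 35410 to 39560 CPM in PBS, with Col1a1, a fibrillar collagen chain, and Fn1, fibronectin, highest on average over all 6 libraries. Of these 10, Dcn, decorin, was called higher and Vim and Thy1 lower, the call of Dcn ending with the replicate block (adjusted p = 0.0503) and without PBS 2 (0.0846), rmCIRBP 1 (0.0771) or rmCIRBP 3 (0.0589). The libraries rmCIRBP 2 and PBS 1 stood apart in smooth muscle genes, which touches Mcam and is given with it.

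Of the 8 genes, 7 passed the filter on low counts, and 6 of these 7 were called by edgeR (quasi-likelihood F test, Benjamini-Hochberg adjusted p under 0.05). Over all 15801 genes tested, 11.5% were called. Sele and Selp passed the filter through their rmCIRBP counts alone, so their place among the 7 depended on their being high there. The selectins and Icam1 and Vcam1 were higher in rmCIRBP, 4 genes in all, where 6.74% of all genes were called higher. Alcam and F11r were lower, 2 genes, where 4.77% of all genes were called lower. Mcam was not called, and Icam2 had too few counts to test. The rmCIRBP and PBS libraries did not overlap for these 6 called genes, which was also so for 34.8% of all genes tested.

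**Figure D1:**
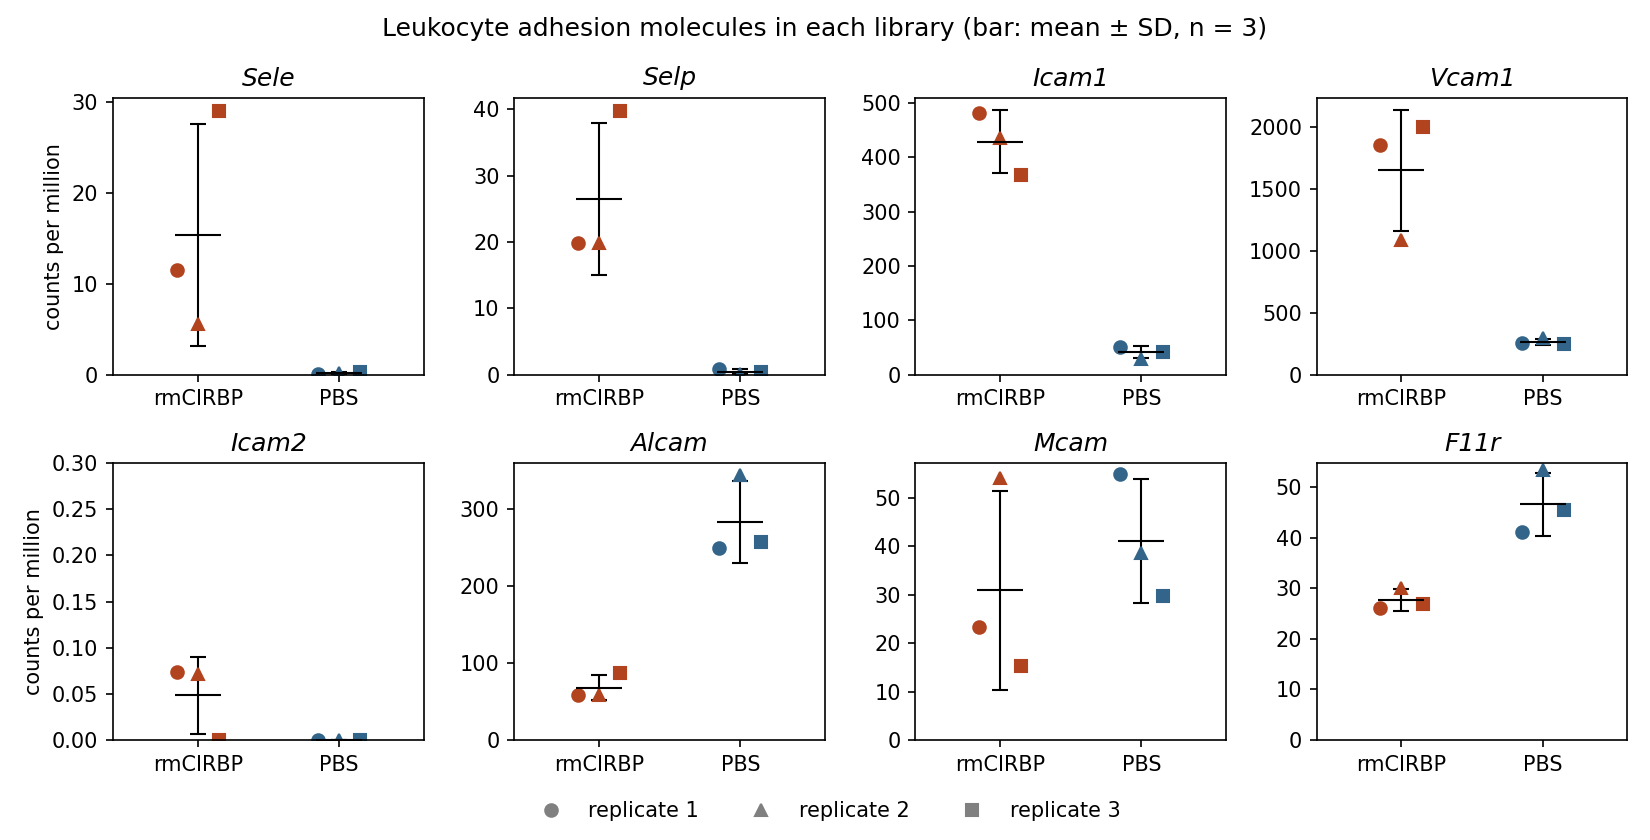
Level in CPM (y axis, linear from 0, a scale of its own for each gene) of the 8 genes in the 3 rmCIRBP libraries (left in each panel) and the 3 PBS libraries (right); bars are mean ± SD. Sele, Selp, Icam1 and Vcam1 lie higher in every rmCIRBP library than in any PBS library, Alcam and F11r lie lower, and Mcam overlaps.

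The sequences just before the starts of 3 of the 4 genes that rose are shown because these genes moved together and a motif of a shared kind could be looked for in them. Promoter windows were in the RefSeq table (GRCm38.p6) for 6 of the 8 genes, Vcam1 and Icam2 being the others. Each window below is the 250 bases before the RefSeq start, 5′ to 3′ on the strand of the gene, which is the plus strand for all 3. The windows are chr9:21015690-21015939 for Icam1, chr1:164047984-164048233 for Sele and chr1:164115014-164115263 for Selp. Capitals mark NF-kB-like stretches that match GGNNNTTCC on either strand. For Icam1 the gene start in the deposited table lies downstream of the RefSeq start. The window of Alcam (chr16:52453082-52453331, minus strand) lies inside the deposited span of that gene. Those of Mcam (chr9:44134408-44134657) and F11r (chr1:171437311-171437560) run past the deposited gene starts. A pattern absent from these windows may still lie before the deposited starts.
Icam1: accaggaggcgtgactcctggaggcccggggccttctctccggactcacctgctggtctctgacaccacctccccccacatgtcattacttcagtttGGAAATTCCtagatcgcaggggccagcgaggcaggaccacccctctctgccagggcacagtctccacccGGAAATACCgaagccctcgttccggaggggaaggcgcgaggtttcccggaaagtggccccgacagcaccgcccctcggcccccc
Sele: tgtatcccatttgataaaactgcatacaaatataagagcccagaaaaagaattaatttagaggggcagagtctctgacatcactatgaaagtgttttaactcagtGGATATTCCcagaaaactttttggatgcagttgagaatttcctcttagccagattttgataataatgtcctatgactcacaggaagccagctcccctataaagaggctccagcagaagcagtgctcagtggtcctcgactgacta
Selp: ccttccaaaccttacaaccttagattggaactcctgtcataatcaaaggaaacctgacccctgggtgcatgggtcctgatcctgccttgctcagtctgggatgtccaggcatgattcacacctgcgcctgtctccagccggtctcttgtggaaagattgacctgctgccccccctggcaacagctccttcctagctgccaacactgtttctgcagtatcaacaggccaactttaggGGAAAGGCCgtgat

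Icam1 held GGAAATTCC at 153 to 145 bases before its start and, on the other strand, GGTATTTCC at 84 to 76 bases. Sele held GGATATTCC at 145 to 137 bases, together with the AP-1 pattern TGACTCA at 73 to 67 bases and the TATA box TATAAA at 49 to 44 bases. Selp held GGCCTTTCC on the other strand at 14 to 6 bases. The pattern GGNNNTTCC occurred on either strand in 15.7% of the 32851 RefSeq windows of the same length. Its letters were not in the windows of Alcam, Mcam and F11r. No other NF-kB-like pattern was counted over the RefSeq windows. Looser NF-kB-like stretches, which begin with ggg and end with cc, do lie in the windows of Mcam (ggggcccgcc) and F11r (gggcgccgcc). Others may lie in the windows of Alcam, Mcam and F11r. The difference from Icam1, Sele and Selp therefore holds for the letters GGNNNTTCC only. TGACTCA was in 4.46% of all windows and also in that of F11r, TATAAA was in 12.4%, and TTCNNNGAA, a GAS-like pattern found in Icam1 and, overlapping the NF-kB-like stretch, in Sele, was in 7.02%. The GC box GGGCGG (32.7% of windows) was in those of Icam1, Alcam, Mcam and F11r. These matches describe letters only, and binding was not measured.

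The selectins showed the largest fold changes of the 8 genes. Sele (ENSMUSG00000026582; chromosome 1, 164048234 to 164057677, GRCm38) had 158, 77 and 406 counts in rmCIRBP 1, 2 and 3, against 1, 2 and 4 counts in PBS 1, 2 and 3. These counts are 11.6, 5.53 and 29.0 CPM in rmCIRBP and 0.0822, 0.165 and 0.281 CPM in PBS. Every rmCIRBP library was above every PBS library, with rmCIRBP 3 the highest and the PBS level close to the limit of detection. The log2 fold change was 6.38 ± 0.83 (SE), with an adjusted p of 0.0032 in edgeR, and 5.52 without rmCIRBP 3. Over the pooled libraries, 641 counts against 7, the ratio per total count was 84.8, with an exact 95% interval of 40.9 to 212 that covers counting error only.

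Selp (ENSMUSG00000026580; chromosome 1, 164115264 to 164150026) lies 57587 bases from Sele in the selectin gene cluster. It had 272, 276 and 556 counts in rmCIRBP 1, 2 and 3, against 11, 1 and 6 counts in PBS 1, 2 and 3. As for Sele, rmCIRBP 3 was the highest library, at 39.7 CPM beside 19.9 CPM in rmCIRBP 1 and 19.8 CPM in rmCIRBP 2. The PBS libraries were at 0.904, 0.0826 and 0.421 CPM and did not overlap with them. The log2 fold change was 5.83 ± 0.55 (SE), with an adjusted p of 0.000806 in edgeR, and 6.66 without PBS 1, which held most of the PBS counts.

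Since selectins are endothelial and platelet genes, the markers of those cells are given beside them. Of 15 endothelial markers, Cldn5, Emcn, Robo4 and Tie1 were at 0 in every library, and Pecam1 and Cdh5, which make endothelial contacts, had at most 5 counts in any library. The summed endothelial markers were at 134 to 164 CPM in rmCIRBP and 150 to 174 CPM in PBS, most of it Eng, a TGF-beta co-receptor that fibroblasts express as well (114 ± 15.2 and 115 ± 8.98 CPM; SD, n = 3 each), and Flt1, a VEGF receptor (28.2 ± 5.39 and 20.2 ± 6.83 CPM). None of the 9 tested was called higher, and 2 fell: Kdr, the main VEGF receptor of endothelium, to 1.23 ± 0.382 CPM in rmCIRBP against 14.1 ± 2.99 CPM in PBS (log2 fold change -3.48; adjusted p = 0.000472 by edgeR), and Tek, the angiopoietin receptor (-0.99; adjusted p = 0.0266, and 0.0524 to 0.0997 in the 6 alternatives in which its call ended, namely the replicate block and leaving out any single library other than PBS 1). Of 6 platelet markers, Ppbp and Gp6 were at 0 throughout, and the sum was 3.38 to 6.71 CPM in rmCIRBP and 9.53 to 13.0 CPM in PBS, most of it Itga2b, the platelet integrin alpha chain, which was called lower (log2 fold change -1.14; adjusted p = 0.0374 by edgeR, and 0.0515 to 0.131 in the 4 in which the call ended, without PBS 2, PBS 3, rmCIRBP 1 or rmCIRBP 2). In bulk RNA, more transcript per cell cannot be told apart from more cells that carry it.

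Icam1 and Vcam1, the ligands that hold leukocyte integrins, were already present under PBS and rose. Icam1 (ENSMUSG00000037405; chromosome 9, 21015985 to 21028817) binds the leukocyte integrins made of Itgb2 with Itgal or Itgam. It was at 483, 436 and 368 CPM in rmCIRBP 1, 2 and 3, against 51.2, 29.2 and 42.4 CPM in PBS 1, 2 and 3. The rmCIRBP libraries were close to each other, and the lowest was 7.20 times the highest PBS library. The log2 fold change was 3.42 ± 0.23 (SE), with an adjusted p of 0.000153 in edgeR, a 10.7-fold increase.

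Vcam1 (ENSMUSG00000027962; chromosome 3, 116109949 to 116129688) binds the integrin of Itga4 and Itgb1 on lymphocytes, monocytes and eosinophils. It was at 1851, 1089 and 2000 CPM in rmCIRBP 1, 2 and 3, against 255, 294 and 246 CPM in PBS 1, 2 and 3. The lowest library of the treated cells, rmCIRBP 2, was still 3.70 times the highest PBS library. The log2 fold change was 2.67 ± 0.25 (SE), with an adjusted p of 0.000689 in edgeR, a 6.36-fold increase.

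Icam2 (ENSMUSG00000001029; chromosome 11, 106377656 to 106388075), an endothelial and platelet ligand of the same integrin as Icam1, was not detectable at this depth. It had 1, 1 and 0 counts in rmCIRBP 1, 2 and 3, against 0 counts in each PBS library. Both groups are under the limit of 3 counts, so no fold is given. Neighbours of Icam1 in its gene cluster also differed from it. Icam4, which lies 556 bases away, had at most 3 counts in any library, and Icam5, 3256 bases away, was at 5.44 ± 1.72 CPM in rmCIRBP and 2.69 ± 0.861 CPM in PBS (SD, n = 3 each; log2 fold change 1.05 ± 0.34; adjusted p = 0.0864 by edgeR) and was not called.

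**Figure D2:**
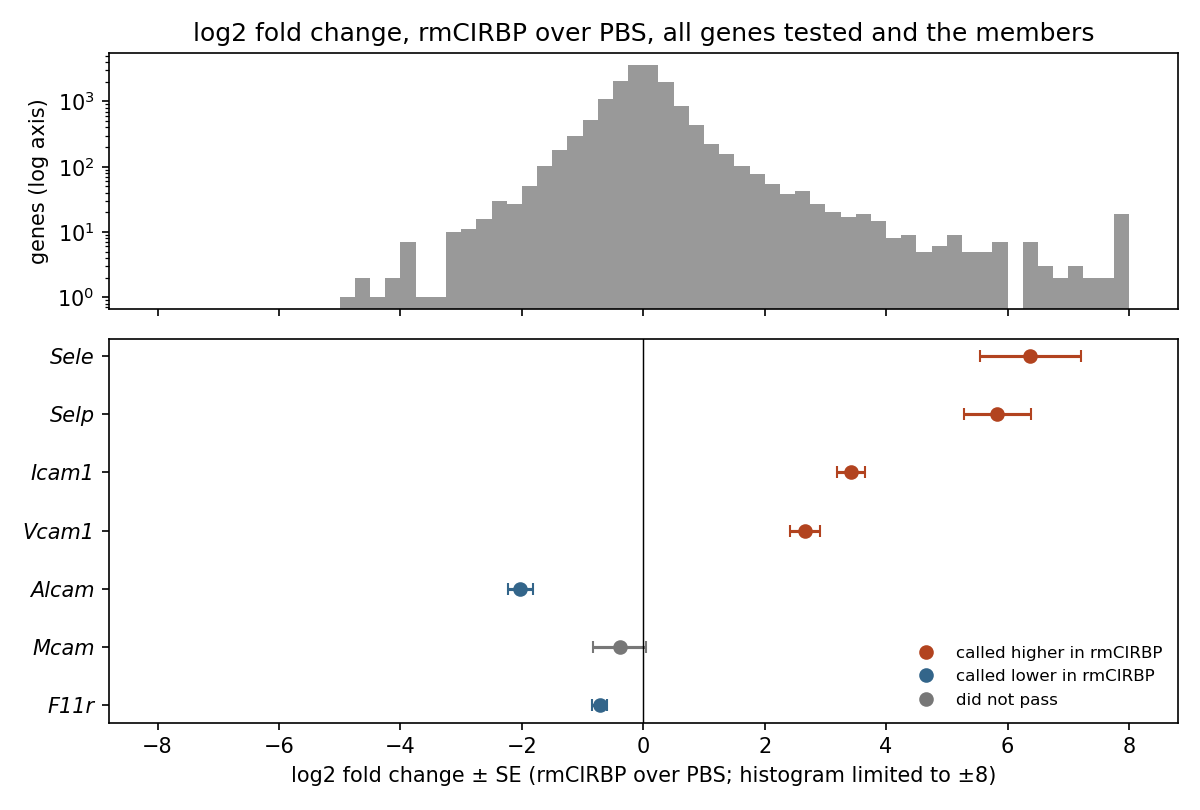
Log2 fold change of rmCIRBP over PBS (x axis) for all 15801 genes tested (grey histogram, log y axis, with values past the axis limits put in the end bins) and, below, for the 7 tested members with SE. Sele (6.38), Selp (5.83), Icam1 (3.42) and Vcam1 (2.67) lie in the right tail, Alcam (-2.03) in the left tail, and F11r (-0.72) and Mcam (-0.39) nearer to 0.

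The contact molecules went the other way or did not pass. Alcam (ENSMUSG00000022636; chromosome 16, 52248996 to 52454074) encodes an adhesion molecule that binds itself and Cd6, a surface receptor of T cells. It was at 58.7, 58.2 and 87.0 CPM in rmCIRBP 1, 2 and 3, against 250, 345 and 257 CPM in PBS 1, 2 and 3. The highest rmCIRBP library lay well under the lowest PBS library, which was 2.87 times as high. The log2 fold change was -2.03 ± 0.21 (SE), with an adjusted p of 0.00112 in edgeR, so that the PBS level was 4.08 times the rmCIRBP level. Cd6 itself had 0 counts in the rmCIRBP libraries and 1, 1 and 0 counts in PBS 1, 2 and 3.

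F11r (ENSMUSG00000038235; chromosome 1, 171437535 to 171464603) encodes junctional adhesion molecule A of epithelial and endothelial tight junctions. It was at 26.1, 30.1 and 26.9 CPM in rmCIRBP 1, 2 and 3, against 41.1, 53.4 and 45.4 CPM in PBS 1, 2 and 3. The groups did not overlap, although the change was small, with a log2 fold change of -0.72 ± 0.13 (SE; adjusted p = 0.0113 by edgeR). The call ended without rmCIRBP 1 (adjusted p = 0.0604) or PBS 2 (0.0516). Its relatives Jam2 and Jam3 were not called, with log2 fold changes of -0.46 ± 0.30 and 0.33 ± 0.10 (adjusted p = 0.343 and 0.0774 by edgeR). Of 12 epithelial markers, the keratin Krt8 and the junction gene Cldn4 with Esrp1 were at 0 in every library. The sum of the 12 was 1.71 to 5.82 CPM in rmCIRBP and 2.56 to 5.47 CPM in PBS. Most of it was the keratin Krt19, the only one tested. Krt19 had 13, 69 and 16 counts in rmCIRBP 1, 2 and 3, against 36, 25 and 62 counts in PBS 1, 2 and 3. It was not called (adjusted p = 0.726 by edgeR).

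Mcam (ENSMUSG00000032135; chromosome 9, 44134469 to 44142727), an adhesion molecule of vessel walls that marks pericytes, smooth muscle and endothelium, varied more within rmCIRBP than between the groups. It was at 23.3, 54.2 and 15.2 CPM in rmCIRBP 1, 2 and 3, against 55.0, 38.7 and 29.7 CPM in PBS 1, 2 and 3. The groups overlapped, since rmCIRBP 2 was close to PBS 1. The log2 fold change was -0.39 ± 0.44 (SE), with an adjusted p of 0.600 in edgeR, and -1.06 without rmCIRBP 2 (adjusted p = 0.0573) or -0.77 without both rmCIRBP 2 and PBS 1 (0.0541), the second alternative chosen after the data were seen.

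The order of the libraries in Mcam was close to that in smooth muscle genes. The 9 pericyte and smooth muscle markers summed to 450, 1118 and 188 CPM in rmCIRBP 1, 2 and 3, against 832, 459 and 470 CPM in PBS 1, 2 and 3, with Higd1b at 0 in every library. Myh11, the smooth muscle myosin, was at 210, 657 and 66.6 CPM in rmCIRBP 1, 2 and 3 and at 441, 207 and 177 CPM in PBS 1, 2 and 3. The same 2 libraries were highest in Mcam, in the sum and in Myh11, and rmCIRBP 3 was lowest in all 3. Myh11 and Cnn1 made up most of the sum, and Cnn1 and Des had the same highest and lowest libraries. Other markers ran otherwise (Des, Notch3 and Rgs5 named after their values were seen). Notch3 was lowest in rmCIRBP 2 (30.95 CPM) and highest in PBS 3 (95.85 CPM). Cspg4 was at 1.87 CPM in rmCIRBP 2 and 14.65 CPM in PBS 3, and Rgs5 was higher in every rmCIRBP library than in any PBS library. Of the 8 tested markers, 1 was called, Cspg4, a pericyte proteoglycan that fell (log2 fold change -2.05; adjusted p = 0.018 by edgeR, and 0.0504 without rmCIRBP 3 or 0.0575 without PBS 2). The part of these genes in the level of Mcam was not tested. Without both libraries the other 6 genes kept their calls, and Selp was at 6.83 on the log2 scale.

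**Figure D3:**
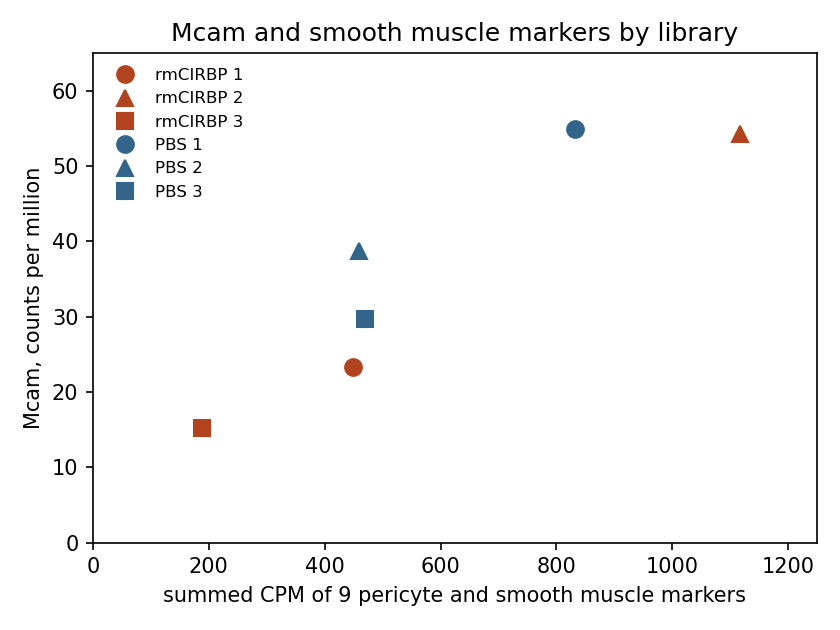
Mcam (y axis, CPM) against the summed CPM of 9 pericyte and smooth muscle markers (x axis), 1 point per library, coloured by treatment. Most of each sum is Myh11 and Cnn1. The libraries rmCIRBP 2 (1118 CPM of markers, 54.2 CPM of Mcam) and PBS 1 (832 and 55.0 CPM) lie at the upper right and rmCIRBP 3 (188 and 15.2 CPM) at the lower left.

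Levels of different genes were compared per length, as TPM (transcript level scaled to length and library) from the counts and the summed exon length of each gene in GENCODE M21. After rmCIRBP the order of levels was Vcam1 at 656 ± 195 TPM, Icam1 at 348 ± 44.6, F11r at 36.8 ± 2.89, Alcam at 33.8 ± 8.35, Mcam at 32.6 ± 21.8, Selp at 21.2 ± 9.30 and Sele at 18.7 ± 14.9 TPM (SD, n = 3). Vcam1 and Icam1 did not overlap with each other, nor did Icam1 with F11r, but from F11r downwards each gene overlapped with the next, and with median transcript lengths Alcam (47.7 TPM) stood before F11r (46.5 TPM). With those lengths the selectins lay further apart, Selp at 32.9 TPM and Sele at 6.01 TPM in rmCIRBP. Under PBS the order was Alcam at 142 ± 27.5 TPM, Vcam1 at 106 ± 10.8, F11r at 62.2 ± 8.81, Mcam at 43.5 ± 13.1, Icam1 at 33.3 ± 8.69, Selp at 0.375 ± 0.327 and Sele at 0.215 ± 0.123 TPM. There each level of Alcam was above each of Vcam1, and each of Vcam1 above each of F11r, while F11r and Mcam overlapped, Mcam and Icam1 overlapped, and so did the selectins.

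The mixture of adhesion transcripts differed between the treatments. Summed over the 8 genes, the level was 1240, 938 and 1265 TPM in rmCIRBP 1, 2 and 3, against 377, 429 and 356 TPM in PBS 1, 2 and 3. Alcam made up 2.34, 3.08 and 3.43% of that sum in rmCIRBP 1, 2 and 3, against 32.6, 40.4 and 36.2% in PBS 1, 2 and 3. Icam1 made up 31.4, 37.8 and 23.7% in rmCIRBP 1, 2 and 3, against 10.9, 5.59 and 9.75% in PBS 1, 2 and 3. Vcam1 was the largest part in every rmCIRBP library, and Alcam in every PBS library.

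**Figure D4:**
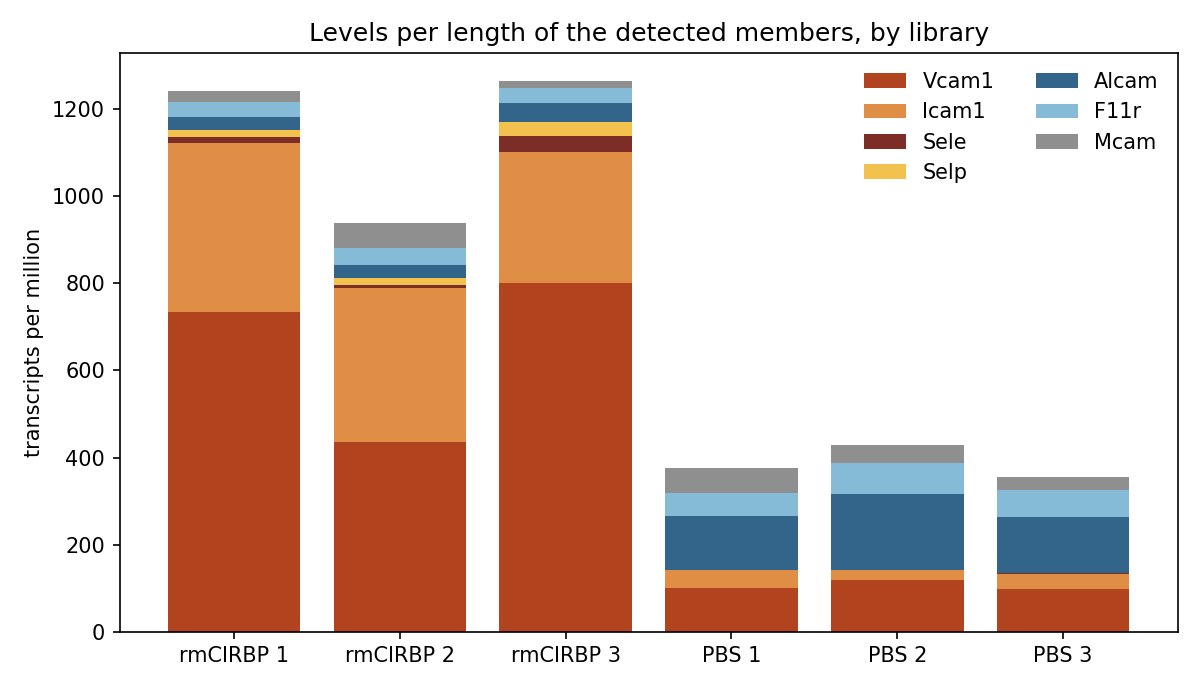
Level per length (y axis, TPM) of the 7 detected members, stacked for each library, rmCIRBP on the left and PBS on the right. The sums are 938 to 1265 TPM in rmCIRBP and 356 to 429 TPM in PBS, and Vcam1 and Icam1 fill most of each rmCIRBP bar whereas Alcam is the largest part of each PBS bar.

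Several of these genes share ground with a gene on the other strand, and the strand setting of the counting is not given in the sources used here, so reads of the partners cannot be told apart. Gm47079, antisense to Icam1 with 511 shared exonic bases, had 989, 835 and 712 counts in rmCIRBP 1, 2 and 3, against 101, 59 and 88 counts in PBS 1, 2 and 3. That was 14.2% of the pooled Icam1 count in rmCIRBP and 15.7% in PBS, and its log2 fold change of 3.27 ± 0.22 (SE; adjusted p = 0.000164 by edgeR) was near that of Icam1. Gm43109, antisense to Vcam1 with only 61 shared exonic bases, had 8.97% of the pooled Vcam1 count in rmCIRBP and 8.26% in PBS. Gm16548, opposite Selp with 438 shared exonic bases, had 19.8% of the pooled Selp count in rmCIRBP and 16.7% in PBS. That PBS share rested on 3 counts of 1 library. Gm16587, also opposite Selp with 186 shared exonic bases, had 11.9% of the pooled Selp count in rmCIRBP and 11.1% in PBS, here 2 counts. Gm10687, which shares 17 exonic bases with Mcam, had 2.10% of the pooled Mcam count in rmCIRBP and 2.24% in PBS. For Sele, Alcam, F11r and Icam2 the annotation showed no such overlap.

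Among genes outside the 8, those with the most similar course over the 6 libraries were found by the root mean square difference of log2 CPM from the PBS mean, over 12503 protein-coding candidates. A prior count of 2 was used for log2 CPM, which shrinks differences for genes near 0. For Icam1 they were Oas3, an antiviral oligoadenylate synthetase (difference 0.20), Nhs (0.22) and Slc39a4, a zinc transporter (0.28). For Vcam1 they were Bcl3, an atypical IkB protein (0.12), Slc39a14, a zinc and iron transporter (0.17), and Cd14, a lipopolysaccharide co-receptor (0.18). For Sele they were Ccl5, a chemokine (0.32), Serpinb2, a plasminogen activator inhibitor (0.37), and Spib, an ETS-family transcription factor (0.41). Some of these similar genes were under the limit of detection in PBS, among them Slc39a4 at 0.152 CPM and Serpinb2 at 0 CPM. Their fitted log2 fold changes, 4.32 and 9.24, were larger than those of Icam1 and Sele. The genes nearest to Selp were farther from it, namely Gbp4, a guanylate-binding protein (0.62), Slc36a2, an amino acid transporter (0.70), and Cp, ceruloplasmin (0.72). Alcam was nearest to Wdr27 (0.22), Ptprd, a receptor phosphatase (0.22), and Csdc2 (0.23). F11r was nearest to Tbx5, a mesenchymal transcription factor (0.06), Mpst (0.08) and Slc9a9 (0.09), and Mcam to Adamts12, a matrix protease (0.14), Cabp1 (0.14) and Pycr1, an enzyme of proline synthesis (0.17).

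Genes known to work with the 8 were read from the same test. Of 26 further junction and adhesion molecules of the leukocyte route, 25 were in the table and 19 were tested, of which 7 rose and none fell, where 6.74% of all genes tested were called higher (median log2 fold change 0.68, against -0.01 over all genes tested). Cd44, the hyaluronan receptor that also binds E-selectin, was at 372, 360 and 418 CPM in rmCIRBP 1, 2 and 3, against 67.0, 67.7 and 63.3 CPM in PBS 1, 2 and 3, and its groups lay far apart (log2 fold change 2.57 ± 0.12; adjusted p = 3.23e-05 by edgeR). Madcam1, the mucosal vessel addressin bound by the integrin of Itga4 and Itgb7, had 84, 35 and 99 counts in rmCIRBP 1, 2 and 3, against 1, 0 and 0 counts in PBS 1, 2 and 3. Its pooled ratio per total count was 202 with an exact 95% counting interval of 35.9 to 8013 (adjusted p = 0.00173 by edgeR). Cd47, which restrains phagocytosis and takes part in transmigration, rose to 184 ± 26.9 CPM in rmCIRBP against 95.8 ± 12.7 CPM in PBS (SD, n = 3 each; adjusted p = 0.00704 by edgeR). The other 4, named after their values were seen, were Vcan (log2 fold change 1.20), Nectin2 (1.00), Cxadr (1.82) and Podxl (2.41), and the call of Podxl ended without PBS 1, PBS 2, rmCIRBP 1 or rmCIRBP 3 (adjusted p = 0.0556 to 0.101).

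The leukocyte side of these contacts was low, apart from Itgb1. Of 14 leukocyte partner genes, 5 were tested and 1 rose, beside 6.74% of all genes tested (median log2 fold change -0.02). Itgad and Cd226 were at 0 in every library. Itgal, the alpha chain of the main Icam1 receptor, had 33, 65 and 13 counts in rmCIRBP 1, 2 and 3, against 0, 1 and 7 counts in PBS 1, 2 and 3 (log2 fold change 3.68 ± 0.91; adjusted p = 0.0385 by edgeR), a call that ended with the replicate block (0.0851) and without PBS 1, PBS 2, rmCIRBP 1, rmCIRBP 2 or both PBS 1 and rmCIRBP 2 (0.0658 to 0.142). Itgb1, the beta chain of the Vcam1 receptor and of many matrix receptors of fibroblasts, was at 1524 ± 418 CPM in rmCIRBP and 1793 ± 342 CPM in PBS and was not called (adjusted p = 0.596 by edgeR; named after its values were seen). Its partner Itga4 was at 3.59 ± 0.973 and 2.71 ± 0.994 CPM (adjusted p = 0.447), and Itgax did not pass either (log2 fold change -0.76; adjusted p = 0.266). Itgb2, the beta chain of the Icam1 receptors, was at 5.01 ± 1.49 CPM in rmCIRBP and 5.19 ± 1.15 CPM in PBS. It was not called (adjusted p = 0.973 by edgeR; named after its values were seen).

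Markers of leukocytes were low but did not all stay level. The 10 leukocyte markers summed to 22.9 to 45.8 CPM in rmCIRBP and 20.7 to 32.9 CPM in PBS, none of them at 0 in all libraries, with Lcp1 and Laptm5 highest on average over all 6 libraries. Of the 8 tested, Rac2 (log2 fold change 2.09; adjusted p = 0.0269 by edgeR) and Cd53 (2.21; adjusted p = 0.0122) were called higher. The call of Rac2 ended in 5 alternatives, without rmCIRBP 1, rmCIRBP 2, PBS 1, PBS 3 or both rmCIRBP 2 and PBS 1 (0.0559 to 0.103), and that of Cd53 without rmCIRBP 1 (0.0538) or PBS 3 (0.0575). The 10 macrophage markers summed to 84.8 to 170 CPM in rmCIRBP and 123 to 162 CPM in PBS. Lyz2, lysozyme, and Cybb, an oxidase subunit, were highest on average over all 6 libraries, and Lyz2 was most of each sum. Marco, Adgre1 and Cybb were called higher, with log2 fold changes of 5.52, 2.46 and 2.26 (adjusted p = 0.000543, 0.0044 and 0.00383 by edgeR). Their means were 9.71, 8.89 and 25.2 CPM in rmCIRBP, against 0.203, 1.64 and 5.35 CPM in PBS. Mrc1 and C1qa were called lower, with log2 fold changes of -1.65 and -2.64. The calls of Mrc1 and C1qa ended without PBS 2, PBS 3, rmCIRBP 1 or rmCIRBP 3, and that of C1qa also without PBS 1 (adjusted p = 0.0577 to 0.156). Of 10 neutrophil markers, 6 were at 0 throughout, and the sum was 2.51 to 4.39 CPM in rmCIRBP and 0 to 0.246 CPM in PBS. The only one tested was Camp, cathelicidin, with 37, 18 and 28 counts in rmCIRBP 1, 2 and 3, against 0 counts in each PBS library. Camp was called higher, but it passed the filter through rmCIRBP alone and could not have been called lower. Among those not tested, S100a8 had 12, 12 and 10 counts in rmCIRBP 1, 2 and 3, against 3, 0 and 0 in PBS 1, 2 and 3. Csf3r had 9, 5 and 6 counts in rmCIRBP 1, 2 and 3, against 0 in each PBS library (named after its values were seen). Of 5 mesothelial markers, 3 were tested, and Upk3b was called lower, a call that ended in 6 alternatives (adjusted p = 0.0514 to 0.0928). The part of such cells in the levels of the adhesion genes was not tested.

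Receptors and transcription factors linked to the control of Icam1, Vcam1 or Sele rose widely. Of 30 such genes, all tested, 18 rose and none fell, where 6.74% of all genes tested were called higher and 4.77% lower (median log2 fold change 0.93, against -0.01 over all genes tested). Relb, an NF-kB subunit, was at 86.6 ± 3.58 CPM in rmCIRBP (SD, n = 3 each), against 18.9 ± 3.03 CPM in PBS (log2 fold change 2.23 ± 0.13; adjusted p = 7.29e-05 by edgeR). Nfkb2 rose by 1.59 and Nfkb1 by 1.34 on the log2 scale (adjusted p = 0.000149 and 0.000221). The groups were apart for all 3. NF-kB genes were already known to rise in these libraries when the list was made.

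Of 7 genes for shedding, 2 rose and none fell, beside 6.74% of all genes tested that rose (median log2 fold change 0.19). Adam17, a membrane protease that can release Icam1, Vcam1 and Alcam from the cell surface, rose to 131 ± 21.8 CPM in rmCIRBP against 73.1 ± 4.01 CPM in PBS (SD, n = 3 each; adjusted p = 0.00767 by edgeR). Rhbdf2, which carries Adam17 to the surface, rose to 62.6 ± 7.46 CPM in rmCIRBP against 18.4 ± 0.822 CPM in PBS (adjusted p = 0.00021). Timp3, the natural inhibitor of Adam17, had a log2 fold change of -0.61 ± 0.18 and did not pass (adjusted p = 0.071).

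Of 9 glycosyltransferases that build selectin ligands, 7 were tested and 1 fell, where 4.77% of all genes tested were called lower. It was Gcnt1, which starts core branches of O-glycans, at 5.92, 1.87 and 3.71 CPM in rmCIRBP 1, 2 and 3, against 15.9, 23.5 and 24.5 CPM in PBS 1, 2 and 3 (log2 fold change -2.44 ± 0.37; adjusted p = 0.00627 by edgeR). St3gal4 (-0.66; adjusted p = 0.17) and St3gal3 (0.29; 0.293), sialyltransferases, did not pass. Of 15 cytoskeletal and scaffold linkers, 1 rose and 1 fell, beside 11.5% of all genes tested that were called in either direction (median log2 fold change 0.14). Ezr, ezrin, which ties Icam1 and Vcam1 to actin, fell to 24.1 ± 4.84 CPM in rmCIRBP against 57.1 ± 13.2 CPM in PBS (adjusted p = 0.012, and 0.0582 without rmCIRBP 1).

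**Figure D5:**
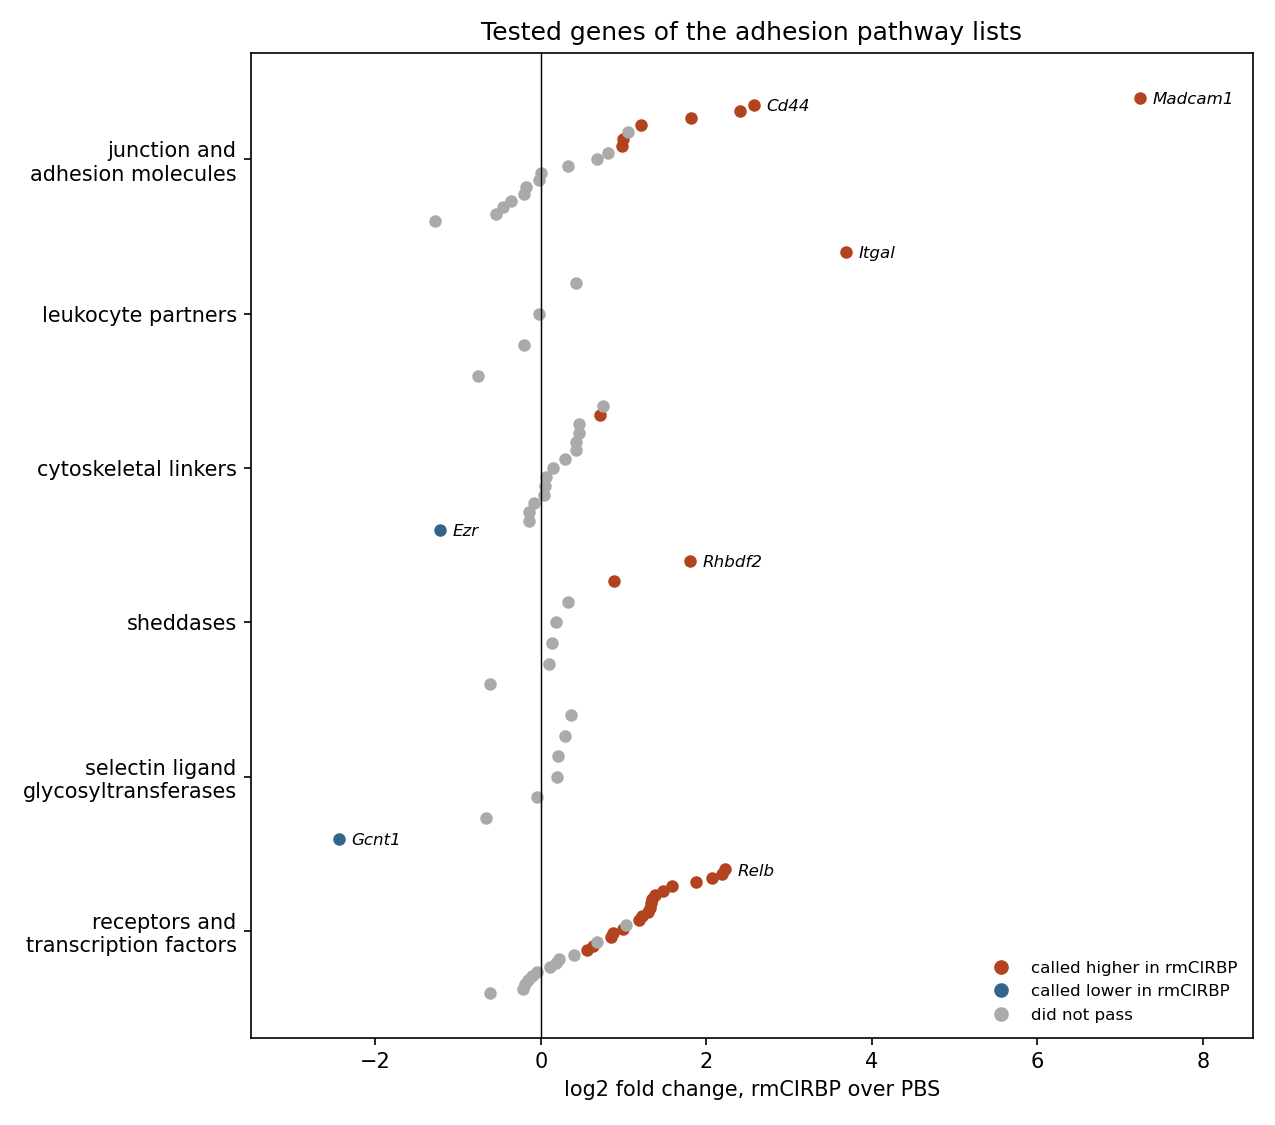
Log2 fold change of rmCIRBP over PBS (x axis) of each tested gene in 6 lists of genes that work with the members, 1 point per gene, sorted within its list and coloured by call, with the largest called change of each list and Cd44 named. In the receptors and transcription factors 18 of 30 are called higher, among the junction and adhesion molecules 7 of 19, and Gcnt1 and Ezr are the genes called lower; the fitted value of Madcam1 (7.24) rests on 1 PBS count.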

How the data were processed

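The authors deposited 1 table of raw counts of reads per gene, 1 column per library. The submitters' processing notes name featureCounts, DESeq2 and R 4.1.2, and the build GRCm38 (mm10). Which aligner, annotation release and strand setting served, and how multi-mapping reads were treated, is not given in the sources used here. Each column was assigned to the sample whose title holds its group and number.

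Genes passing filterByExpr (by group) were normalized by TMM and tested with edgeR 4.0.16 (R 4.3.3) by a two-sided quasi-likelihood F test of rmCIRBP over PBS with no covariate, with Benjamini-Hochberg adjustment over all 15801 genes at 0.05. A gene could pass this filter through 1 group alone, as Sele, Selp, Madcam1, Podxl, Itgal, Rac2, Marco and Camp did through rmCIRBP. The SE is the log2 fold change over the square root of F. CPM is relative to the total count, and TPM uses exon lengths. All pairs of libraries differed by more than sampling noise (chi-square per degree of freedom of at least 14.2). The code was tested on simulated data.

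The genes and lists were chosen with earlier results of these data known. Named genes were all 8 members, the 3 list genes with the smallest p, called genes of lists with at most 5 calls, the 2 most abundant markers of a cell type, and the 3 nearest genes in course; others are marked. Some genes that this rule names are not reported here.

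Alternatives were other scalings and filters, DESeq2 1.42.0, limma 3.58.1 voom, a robust fit, a replicate block, protein-coding genes alone, other gene lengths and leaving out libraries.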

Additional observations from a re-analysis of the deposited data

How the results depend on the processing

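All 7 tested genes kept their direction in each of 17 alternatives. Icam1, Vcam1, Sele, Selp and Alcam kept their calls in all 17, the adjusted p of Sele reaching 0.0497 with limma voom. Leaving out 1 library gave log2 fold changes of 3.23 to 3.64 for Icam1, 2.50 to 2.90 for Vcam1, 5.52 to 6.88 for Sele, 5.37 to 6.66 for Selp, -2.25 to -1.86 for Alcam, -1.06 to -0.06 for Mcam and -0.78 to -0.60 for F11r. It left 5 to 6 members called, F11r being the one lost (adjusted p = 0.0604 without rmCIRBP 1 and 0.0516 without PBS 2). The number of genes called, 1818, was 723 to 2144 when 1 library was left out (742 without rmCIRBP 1, 723 without PBS 2 and 863 without PBS 3) and 2802 without both rmCIRBP 2 and PBS 1, and the cause was not tested. With upper quartile scaling the calls split into 925 higher and 1022 lower, against 1065 and 753.

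The titles share replicate numbers, but the deviations of same-numbered libraries correlated at -0.11, -0.17 and 0.25 across genes, so the numbers were not taken to pair the samples. With the replicate block 1258 genes and 6 members were called, the log2 fold change being 3.45 for Icam1, 2.63 for Vcam1, 6.38 for Sele, 5.84 for Selp, -2.04 for Alcam, -0.54 for Mcam and -0.71 for F11r. Icam2 could be fitted only without the filter, on 2 counts. With median transcript lengths, levels moved by more than 1 SD in some groups, Icam1 being at 206 TPM in rmCIRBP and 19.6 TPM in PBS. Calls in the 6 partner lists stayed within 1.5 times in 91 of their alternatives and moved further in 11, all in the leukocyte partners and the linkers, which had 1 and 2 calls. Sele and Selp under PBS rest on 7 and 18 counts.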
